A study of Arabidopsis thaliana with 12 samples.

Results

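Etiolated Arabidopsis thaliana seedlings that carried ein5 were compared with wild-type ones, both after exposure to ethylene gas. The comparison used the 4 arrays whose sample titles read ein5 or wt, ethylene and replicate 1 or 2, out of 12 arrays in the series, and it covered all 22746 probe sets of the deposited table. All 12 sample titles end in polyA. The ein5 seedlings carried the ein5-1 allele, and the ein2 seedlings used below for side-by-side values carried ein2-5, per the series text. All groups share the Columbia background, growth in darkness and a cold treatment of the seeds. Per the series text, seedlings had 3 days of darkness at 24 °C and then 4 h of ethylene at 10 ppm, and the air groups stayed in hydrocarbon-free air. The text of the 4 samples compared here instead has 5 days of darkness at 25 °C under ethylene, so the length of the exposure is not settled by the labels. The extraction protocol names mature leaves, and the sample texts whole plant tissue and leaves, although the source is given as seedlings. Nothing says whether the 2 arrays of a group came from separate cultures, and the p-values here reflect the spread between arrays alone, which may be technical.

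Ethylene is a gaseous plant hormone. It is sensed by receptors at the endoplasmic reticulum, and without the hormone the receptors keep the pathway off through the kinase CTR1. When the hormone binds, the membrane protein EIN2 passes the signal on and the transcription factor EIN3 accumulates. EIN5, also called XRN4, is a cytoplasmic exoribonuclease that degrades messenger RNA whose cap has been removed. Its mutants respond weakly to ethylene, and the mRNAs of EBF1 and EBF2, F-box proteins that send EIN3 to degradation, build up in them. In darkness ethylene shortens the hypocotyl and root and tightens the apical hook, which changes cell walls and cell expansion.

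Values are scaled intensities, and pairs of values are given for replicate 1 and then replicate 2. Changes are ein5 minus wild type on the log2 scale of the scaled intensity plus 16, with the standard error of the limma fit after ±. Calls are at an adjusted p under 0.05. The wild-type ethylene arrays stand apart by their spread. The median difference between these replicates was 0.32 on the log2 scale, against 0.20 in ein5 in ethylene and 0.19 to 0.25 in the other groups. Wild-type ethylene replicate 1 correlated at 0.9598 with its own replicate and at 0.9604 on average with the arrays of other groups. For wild-type ethylene replicate 2 the average with other groups was 0.9467, the lowest of the 12 arrays. Results are therefore also given without each of the wild-type ethylene arrays. The genes EIN5, EIN2, EBF1 and EBF2 could not be named on the array and are not analysed here, and the genotype labels were not checked on the mutated genes.

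In ethylene, the seed genes M17 and PAP85, 4 of 6 probe sets of late embryogenesis abundant proteins, 5 of 19 expansins and the defensin PDF2.1 were higher in ein5. The seed gene OLEO3 had lower values in ein5 without being called, and the expansin EXPA9 was called lower. The peroxidase PRX71, the ethylene-responsive genes RTE1 and ARL, the auxin-conjugating enzymes IAGLU and GH3.3 and some cell wall enzymes were lower. In all, 1156 probe sets (5.08%) were called, 489 (2.15%) higher in ein5 and 667 (2.93%) lower. Over 2-fold changes numbered 182 (0.8%) higher and 138 (0.607%) lower. The 4 arrays of the 2 groups did not overlap in any called probe set, which by itself is common, since 44.7% of all probe sets had no overlap. Of the probe sets with exactly 1 gene 622 (4.6%) were called, 288 (2.13%) higher and 334 (2.47%) lower.

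The balance of the calls depended on scaling and on single arrays. With the values as deposited, 711 were higher and 501 lower, and after quantile normalization 688 and 580. Without wild-type ethylene replicate 1 the calls were 887 higher and 1652 lower, and without replicate 2 they were 370 and 240. Without ein5 ethylene replicate 1 the calls were 165 and 171, and without replicate 2 they were 162 and 202. With no trend of the variance on intensity 317 were called, with only these 4 arrays in the fit 254, and with array weights 686. A set of 219 probe sets, 109 higher and 110 lower, was called again in the same direction when each of the 4 ethylene arrays was left out in turn, and membership in it is given below as being called without each ethylene array.

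**Figure D1:**
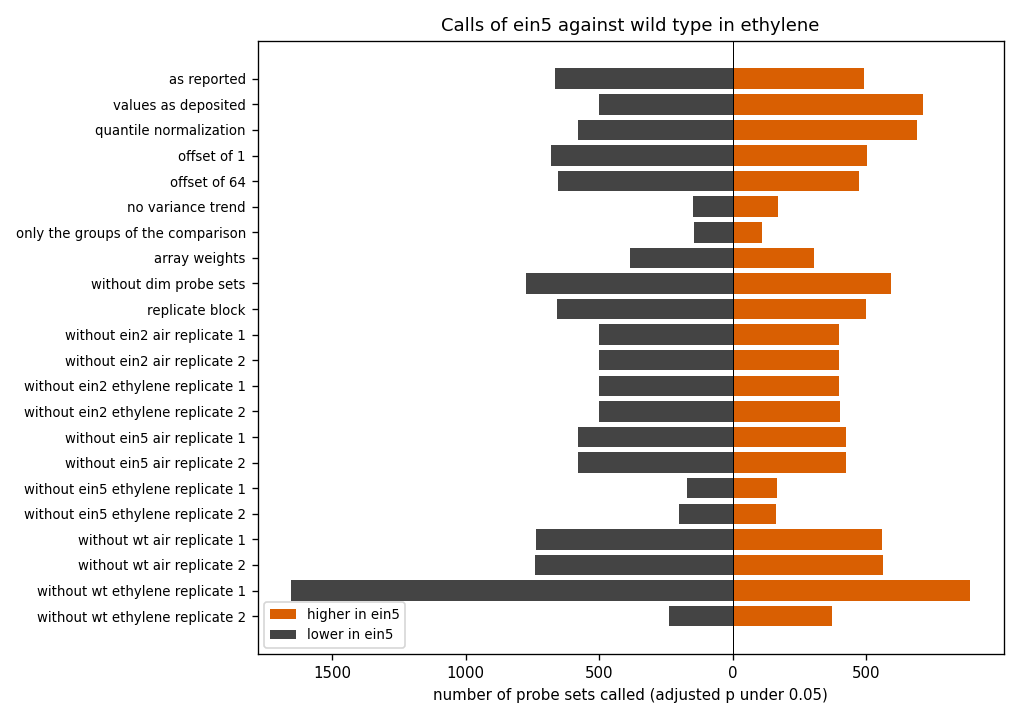
Number of probe sets called in ein5 against wild type in ethylene (horizontal axis), higher to the right and lower to the left of 0, for the reported fit and each alternative. The reported 489 higher and 667 lower turn to 370 and 240 without wild-type ethylene replicate 2 and to 887 and 1652 without replicate 1.

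M17 and PAP85, known from maturing seed, were among the 14 genes with the largest rise in level over wild type. That ranking holds only called single-gene probe sets without overlap and with a mean of at least 500 in the brighter group. M17, a gene of late embryogenesis, read 216 and 179 in wild type and 1762 and 1049 in ein5. Both ein5 arrays lay above both wild-type arrays, and the log2 change was 2.69 ± 0.24 (adjusted p = 3.92e-05). PAP85, which encodes a vicilin-like seed protein, read 362 and 392 in wild type and 1698 and 1369 in ein5, a change of 1.97 ± 0.28 (adjusted p = 0.00139). The replicates of each genotype lay close together for this gene and the groups were far apart. M17 and PAP85 were both called without each ethylene array. In bulk seedlings a different number of cells of a type and a different level of RNA per cell cannot be told apart. AT5G66780 and AT2G28490, which carry only a locus number here, changed by 2.19 ± 0.23 and 1.85 ± 0.25. AT5G66780 read 261 and 173 in wild type and 1300.1 and 817 in ein5, so its ein5 replicates differed visibly but still stood above wild type.

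Late embryogenesis abundant (LEA) proteins are hydrophilic proteins that build up in drying seeds and under water deficit. Of 6 probe sets named for them, 4 were higher and 0 lower, beside 2.13% and 2.47% of all single-gene probe sets, and their median change was 1.04 against -0.02 over the latter. This family and those below were chosen with earlier results of these data known, so their counts beside these shares are descriptive only. LEA18, of LEA group 4, read 1416 and 1093 in wild type and 4766 and 3534 in ein5 (1.71 ± 0.19, adjusted p = 0.000195). AtLEA4-1 read 308 and 558 in wild type and 1047 and 792 in ein5, and LEA4-5 read 922 and 1498 in wild type and 2247 and 2397 in ein5. All 3 genes of LEA group 4 had higher values on both ein5 arrays than on both wild-type arrays. The dim probe set of the gene named LEA read 113 and 29.3 in wild type and 612 and 340.2 in ein5 (2.63 ± 0.41, adjusted p = 0.00239). The adjusted p was 0.0214 for AtLEA4-1 and 0.0212 for LEA4-5, which changed by 0.97 ± 0.22. AtLEA4-1 was not called without wild-type ethylene replicate 1 (adjusted p = 0.0904), ein5 ethylene replicate 1 (adjusted p = 0.191) or ein5 ethylene replicate 2 (adjusted p = 0.056). LEA4-5 was not called without wild-type ethylene replicate 1 (adjusted p = 0.0964), ein5 ethylene replicate 1 (adjusted p = 0.106) or ein5 ethylene replicate 2 (adjusted p = 0.144). Without wild-type ethylene replicate 1 the LEA calls were 2 higher and 1 lower, without either ein5 ethylene array 2 were higher, and with only the 4 ethylene arrays in the fit 1 was higher.

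The other measured seed marker had values in the opposite direction. Of 17 seed maturation genes listed, 2 were measured and named, PAP85 and OLEO3. OLEO3, which encodes an oleosin of seed oil bodies, read 9251 and 9983 in wild type and 8453 and 6004 in ein5 (-0.43 ± 0.16, adjusted p = 0.142), so it was not called and its values were lower in ein5. RCA, the activator of the carbon-fixing enzyme of leaves and the only measured and named leaf marker of 13, read 19076 and 34231 in wild type and 19902 and 18310.3 in ein5 (adjusted p = 0.347, and called lower at 0.0124 without wild-type ethylene replicate 1). The part of tissue make-up in the results was not tested.

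**Figure D2:**
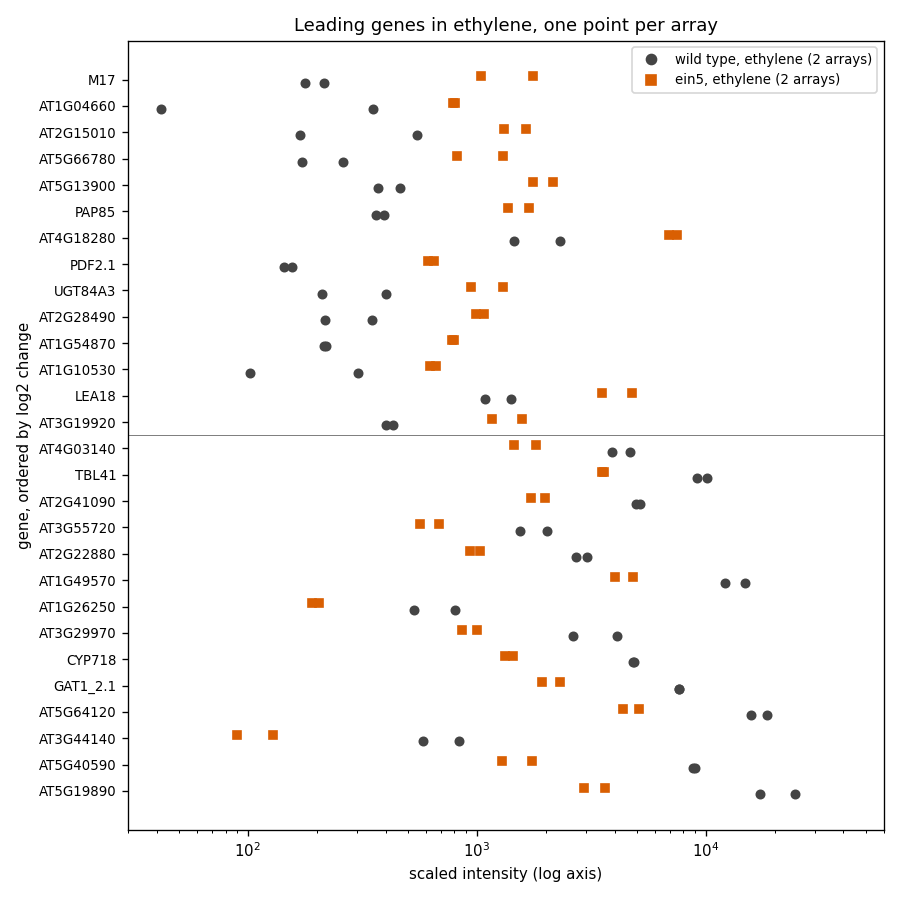
Scaled intensity (log axis) of the 14 genes with the largest positive and the 14 with the largest negative change, circles for the 2 wild-type and squares for the 2 ein5 arrays in ethylene. The genes were taken from called single-gene probe sets without overlap and with a mean of at least 500 in the brighter group. M17 stands at the top with 216 and 179 in wild type and 1762 and 1049 in ein5, and AT5G19890 at the bottom with 17249 and 24641 against 2933 and 3629.

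Expansins loosen cell walls during growth. Of 19 expansin probe sets, 5 were higher and 1 lower, beside 2.13% and 2.47% of all single-gene probe sets, with a median of 0.21. EXPA15 read 821 and 928 in wild type and 2264 and 2146 in ein5 (1.32 ± 0.14, adjusted p = 0.000171). EXPA4 read 3632 and 4244 in wild type and 7452 and 7249 in ein5 (0.90 ± 0.14, adjusted p = 0.00277). The ein5 values of both genes were far above wild type with little spread, and both genes were called without each ethylene array. The beta-expansins EXPB3 (0.98 ± 0.18) and EXPB1 (0.79 ± 0.18) and the expansin-like gene EXLA2 (0.53 ± 0.13) were also higher. EXPA9 went the other way, with 19675 and 31985 in wild type and 15609 and 16365 in ein5 (-0.65 ± 0.18, adjusted p = 0.0479). Its wild-type replicates differed by more than the gap from the lower of them to ein5. The expansins of root hairs, EXPA7 (-0.75 ± 0.22, adjusted p = 0.0698) and EXPA18 (-0.55 ± 0.16, adjusted p = 0.063), were not called. They are the 2 measured and named members of a list of 9 root hair genes, and both were lower at an unadjusted p under 0.05. EXPA18 was called lower without wild-type ethylene replicate 1 (adjusted p = 0.0153). EXPB3 was not called without ein5 ethylene replicate 1 (adjusted p = 0.0812). EXPB1 was not called without wild-type ethylene replicate 1 (adjusted p = 0.0911), ein5 ethylene replicate 1 (adjusted p = 0.12) or ein5 ethylene replicate 2 (adjusted p = 0.134). EXPA9 was not called without wild-type ethylene replicate 2 (adjusted p = 0.217), ein5 ethylene replicate 1 (adjusted p = 0.233) or ein5 ethylene replicate 2 (adjusted p = 0.179). EXLA2 was not called without any of the 4 ethylene arrays in turn (adjusted p from 0.0613 to 0.225). Without ein5 ethylene replicate 1 the expansin calls were 2 higher and 0 lower, and with no variance trend 1 and 0.

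Among families with members in both directions, 3 of 52 UDP-glycosyltransferases were higher and 3 lower, and 2 of 15 plant defensins were higher and 1 lower, PDF2.5 (-0.47 ± 0.12, adjusted p = 0.0431, and 0.0838 to 0.216 when any of the 4 ethylene arrays was left out). Of 16 SWEET sugar transporters 2 were higher and 0 lower, beside 2.13% higher and 2.47% lower over all single-gene probe sets. PDF2.1, a plant defensin, read 144 and 156 in wild type and 614 and 649.8 in ein5, with almost no spread between replicates (1.96 ± 0.28, adjusted p = 0.00137). UGT84A3, a glucosyltransferase that acts on hydroxycinnamic acids, read 402 and 211 in wild type and 1300.1 and 943 in ein5. Its groups did not overlap and it was higher by 1.87 ± 0.36, although the wild-type replicates were uneven (adjusted p = 0.00829). SWEET1, a sugar transporter of the SWEET family, read 1235 and 1383 in wild type and 2738 and 2231 in ein5 (0.91 ± 0.19, adjusted p = 0.0146). PUB19, a U-box protein that attaches ubiquitin, read 1203 and 1220.2 in wild type and 2519 and 3015 in ein5 (1.17 ± 0.13, adjusted p = 0.000164). Its ein5 level was clearly above wild type on both arrays. U2AF35B, a subunit of the factor that recognises the end of introns, read 2334 and 2191 in wild type and 3483 and 3833 in ein5 (0.69 ± 0.15, adjusted p = 0.0158), and its relative ATU2AF35A changed by 0.38 ± 0.10 (adjusted p = 0.0453). UGT84A3 was not called without wild-type ethylene replicate 2 (adjusted p = 0.0763) or ein5 ethylene replicate 1 (adjusted p = 0.107). SWEET1 was not called without ein5 ethylene replicate 1 (adjusted p = 0.156). U2AF35B was not called without wild-type ethylene replicate 2 (adjusted p = 0.0911), ein5 ethylene replicate 1 (adjusted p = 0.0739) or ein5 ethylene replicate 2 (adjusted p = 0.143). ATU2AF35A was not called without any of the 4 ethylene arrays in turn (adjusted p from 0.0609 to 0.211).

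RTE1 and ARL, both known to respond to ethylene, were lower. RTE1, whose product acts on the receptor ETR1, read 10955 and 10551 in wild type and 5472 and 4879 in ein5. Both ein5 arrays lay clearly below wild type, a change of -1.05 ± 0.12 (adjusted p = 0.000195), and RTE1 was called without each ethylene array. ARL, an organ-size gene related to ARGOS, read 21927 and 25586 in wild type and 16788 and 15134 in ein5 (-0.57 ± 0.12, adjusted p = 0.0122). Its groups stayed apart, but the call was lost without wild-type ethylene replicate 2 (0.0692) or without ein5 ethylene replicate 1 (0.0506) or 2 (0.131). EIN3 itself read 11244 and 14147 in wild type and 11482 and 12066 in ein5, so the arrays overlapped and no difference was called (-0.10 ± 0.12, adjusted p = 0.74). The defensin PDF1.2 read 103 and 267 in wild type and 103 and 184 in ein5 and was not called (adjusted p = 0.898).

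These genes are the measured and named members of the fixed ethylene lists. The lists were chosen with earlier results of these data known, so their counts are descriptive only. Of 16 signalling genes 2 had a value, RTE1 and EIN3, with 1 lower and 0 higher. Of 12 ethylene-induced genes 3 had a value, RTE1, ARL and PDF1.2, with 2 lower and 0 higher. Their median was -0.57, beside a median of -0.03 over all probe sets. The shares called over all single-gene probe sets were 2.13% higher and 2.47% lower, beside which the counts of both lists stand. RTE1 belongs to both lists, so they are not independent. AT1G12010, the only member of the ethylene biosynthesis list with a value, read 808 and 563 in wild type and 886 and 932 in ein5 and was not called (0.42 ± 0.21, adjusted p = 0.305).

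Peroxidases of class III act on the cell wall and on reactive oxygen. AT5G64120, annotated as peroxidase PRX71, read 15724 and 18554 in wild type and 4370.4 and 5097 in ein5. The ein5 arrays were several times lower, and this change of -1.85 ± 0.11 (adjusted p = 1.39e-06) was among the most precise of the comparison. PRX52, a dim probe set at 142 and 30.1 in wild type and 314 and 244 in ein5, was higher (1.78 ± 0.46, adjusted p = 0.0408). PRX52 was not called without wild-type ethylene replicate 2 (adjusted p = 0.237), ein5 ethylene replicate 1 (adjusted p = 0.234) or ein5 ethylene replicate 2 (adjusted p = 0.14). Of 6 peroxidase probe sets named in the gene table, 1 was thus higher, 1 lower and 4 were not called, where 2.13% of all single-gene probe sets were higher and 2.47% lower. Peroxidase genes without such a symbol or synonym in the gene table are not in this count. UPB1, a transcription factor known to control peroxidase genes in the root, read 5730.3 and 4792 in wild type and 1865 and 2192 in ein5. It too was lower in ein5 without overlap (-1.37 ± 0.19, adjusted p = 0.000854).

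Cell wall enzymes of 3 more families had lower members and no higher one. Xyloglucan endotransglucosylases cut and rejoin wall xyloglucan, and 3 of 10 were lower. Over all single-gene probe sets 2.47% were lower, against which this count and the next ones in wall families stand. XTH18 read 24172 and 28818 in wild type and 13621 and 14411 in ein5 (-0.91 ± 0.18, adjusted p = 0.00971), and XTH19 read 26396 and 34605 in wild type and 17161 and 20214 in ein5 (-0.70 ± 0.15). For both genes the ein5 arrays lay below the wild-type ones, but the wild-type replicates of XTH19 differed by more than the gap from the lower of them to ein5. The third was EXGT-A3 (-0.48 ± 0.12, adjusted p = 0.0369). Of 4 pectin methylesterase probe sets 2 were lower, ATPMEPCRB at 8126 and 8476 in wild type and 4399 and 4066 in ein5 (-0.97 ± 0.11, adjusted p = 0.00021), and PMEPCRF at -0.74 ± 0.14. ATPMEPCRB was called without each ethylene array. Of 15 genes of glycosyl hydrolase family 9, which holds endoglucanases, 2 were lower. GH9B12 read 2987 and 3622 in wild type and 1727 and 1459 in ein5 (-1.04 ± 0.25, adjusted p = 0.0294), and GH9B13 changed by -0.59 ± 0.16 (adjusted p = 0.0478). XTH18 was not called without wild-type ethylene replicate 2 (adjusted p = 0.0688), ein5 ethylene replicate 1 (adjusted p = 0.0902) or ein5 ethylene replicate 2 (adjusted p = 0.0626). XTH19 was not called without wild-type ethylene replicate 2 (adjusted p = 0.0608) or ein5 ethylene replicate 1 (adjusted p = 0.159). EXGT-A3 was not called without wild-type ethylene replicate 2 (adjusted p = 0.187), ein5 ethylene replicate 1 (adjusted p = 0.211) or ein5 ethylene replicate 2 (adjusted p = 0.144). GH9B12 was not called without wild-type ethylene replicate 2 (adjusted p = 0.184), ein5 ethylene replicate 1 (adjusted p = 0.114) or ein5 ethylene replicate 2 (adjusted p = 0.216). GH9B13 was not called without wild-type ethylene replicate 2 (adjusted p = 0.218), ein5 ethylene replicate 1 (adjusted p = 0.239) or ein5 ethylene replicate 2 (adjusted p = 0.175). PMEPCRF was not called without ein5 ethylene replicate 1 (adjusted p = 0.116). With no variance trend 0 xyloglucan endotransglucosylases, 0 members of glycosyl hydrolase family 9 and 1 pectin methylesterase were called. The family 9 calls numbered 5 without wild-type ethylene replicate 1 and 0 without any of the other 3 ethylene arrays. Calls of xyloglucan endotransglucosylases numbered 0 without wild-type ethylene replicate 2 or ein5 ethylene replicate 1.

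**Figure D3:**
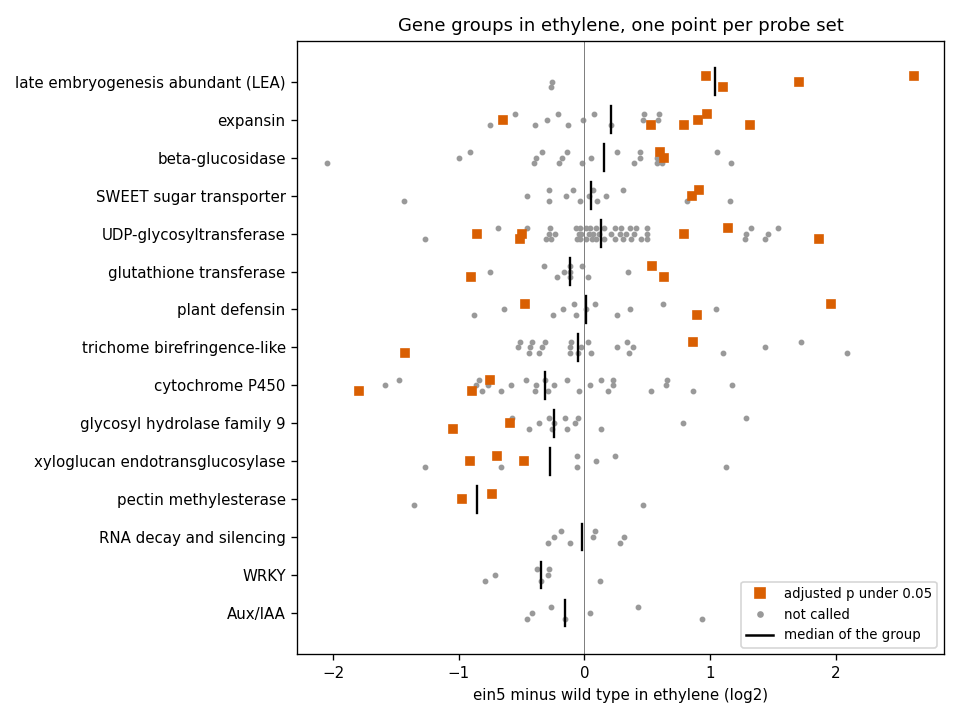
Log2 change of ein5 minus wild type in ethylene for 15 gene groups, one point per probe set, squares for those called and a bar at the median of each group. Called LEA probe sets (4 of 6) all lie to the right, called xyloglucan endotransglucosylases (3 of 10) all to the left, and the 8 RNA decay and silencing genes lie around 0 with none called.

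Single genes of auxin conjugation were lower, 2 of 5 GH3 probe sets (2.47% of all single-gene probe sets were lower) and the glycosyltransferase IAGLU. IAGLU, which joins glucose to auxin, read 19566 and 21317 in wild type and 10276 and 12379 in ein5 (-0.86 ± 0.16, adjusted p = 0.00763). GH3.3, which joins auxin to amino acids, read 1890.2 and 1881 in wild type and 1021 and 1293 in ein5 (-0.71 ± 0.18, adjusted p = 0.0323), and WES1 of the same family read 12404 and 16455 in wild type and 9864 and 9157 in ein5 (-0.59 ± 0.13). For all 3 genes both ein5 arrays were below both wild-type arrays. The other 3 of 5 GH3 probe sets were not called, and the family median was 0.21. Leaving out any of the 4 ethylene arrays ended the call of GH3.3 (adjusted p from 0.0578 to 0.259). IAGLU was not called without wild-type ethylene replicate 2 (adjusted p = 0.0586) or ein5 ethylene replicate 1 (adjusted p = 0.0996). WES1 was not called without wild-type ethylene replicate 2 (adjusted p = 0.0842), ein5 ethylene replicate 1 (adjusted p = 0.0808) or ein5 ethylene replicate 2 (adjusted p = 0.147). None of 7 Aux/IAA genes, the early auxin-induced repressors, was called in limma's fit (median -0.16), with 1 higher and 1 lower at an unadjusted p under 0.05.

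GAT1_2.1, a glutamine amidotransferase, read 7646 and 7638 in wild type and 2305 and 1923 in ein5 (-1.85 ± 0.18, adjusted p = 7.55e-05). The wild-type replicates were almost equal and the ein5 level lay far below them. CYP718, a cytochrome P450, read 4877 and 4795 in wild type and 1438 and 1329.9 in ein5 (-1.79 ± 0.31, adjusted p = 0.00479), and of 29 P450 probe sets 3 were lower and 0 higher, against 2.47% lower and 2.13% higher over all single-gene probe sets. TBL41, of a family of wall polysaccharide acetylation, read 10158 and 9142 in wild type and 3539.8 and 3614 in ein5 (-1.43 ± 0.15, adjusted p = 0.000161). GSTU27, a glutathione transferase, changed by -0.90 ± 0.14, while its relatives GSTU25 (0.63 ± 0.14) and GSTU26 (0.54 ± 0.14) were higher, so that 2 of 13 glutathione transferases were higher and 1 lower. MGL, which breaks down methionine, the precursor of ethylene, read 10688 and 16642 in wild type and 7411 and 7996 in ein5 (-0.79 ± 0.16, adjusted p = 0.0111). The transcription factor bZIP44 read 9297 and 9831 in wild type and 4561 and 4871 in ein5 (-1.02 ± 0.13, adjusted p = 0.000468), with little spread in either group. CYP718 was not called without ein5 ethylene replicate 2 (adjusted p = 0.0572). MGL was not called without ein5 ethylene replicate 1 (adjusted p = 0.106) or ein5 ethylene replicate 2 (adjusted p = 0.0622). GSTU25 was not called without wild-type ethylene replicate 2 (adjusted p = 0.0726), ein5 ethylene replicate 1 (adjusted p = 0.0538) or ein5 ethylene replicate 2 (adjusted p = 0.152). GSTU26 was not called without wild-type ethylene replicate 2 (adjusted p = 0.259), ein5 ethylene replicate 1 (adjusted p = 0.188) or ein5 ethylene replicate 2 (adjusted p = 0.198).

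Among the named genes, the most strongly lower ones carried only a locus number. AT5G19890 read 17249 and 24641 in wild type and 2933 and 3629 in ein5 (-2.65 ± 0.22, adjusted p = 1.73e-05). AT5G40590 read 8801 and 8953 in wild type and 1289 and 1739.7 in ein5 (-2.55 ± 0.22, adjusted p = 2.76e-05), and AT1G49570 read 12197 and 14887 in wild type and 4023 and 4839 in ein5 (-1.61 ± 0.20). All 3 were called without each ethylene array. AT3G44140 read 581 and 835 in wild type and 90.1 and 128 in ein5 (-2.53 ± 0.42, adjusted p = 0.00338), and its values in ein2 in ethylene, 374 and 932, spanned those of wild type. The remaining locus-only genes among the 14 lowest, AT3G29970, AT1G26250, AT2G22880, AT3G55720, AT2G41090 and AT4G03140, changed by -1.79 to -1.39. AT1G26250 was not called without wild-type ethylene replicate 2 (adjusted p = 0.072), ein5 ethylene replicate 1 (adjusted p = 0.0725) or ein5 ethylene replicate 2 (adjusted p = 0.0536). AT2G22880 was not called without ein5 ethylene replicate 1 (adjusted p = 0.0528) or ein5 ethylene replicate 2 (adjusted p = 0.0755). AT3G29970 was not called without ein5 ethylene replicate 1 (adjusted p = 0.0557). AT3G55720 was not called without ein5 ethylene replicate 2 (adjusted p = 0.0578). The locus-only genes on the higher side included AT2G15010 (2.20 ± 0.36), AT1G04660 (2.48 ± 0.61), AT1G54870 (1.78 ± 0.20), AT1G10530 (1.77 ± 0.46) and AT3G19920 (1.67 ± 0.22). AT2G15010, AT1G04660 and AT1G10530 had uneven wild-type replicates. The change of AT2G15010 was 3.004 without wild-type ethylene replicate 1 and 1.396 without replicate 2, and it was called both times. AT1G04660 was not called without wild-type ethylene replicate 2 (adjusted p = 0.164), ein5 ethylene replicate 1 (adjusted p = 0.159) or ein5 ethylene replicate 2 (adjusted p = 0.167). AT1G10530 was not called without wild-type ethylene replicate 1 (adjusted p = 0.158), ein5 ethylene replicate 1 (adjusted p = 0.18) or ein5 ethylene replicate 2 (adjusted p = 0.199).

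Genes of RNA decay and silencing were looked at because EIN5 works beside them. Of 31 listed, 8 had a value and 0 were called by limma, with changes from -0.29 to 0.31 and a median of -0.02 (0.06 with values as deposited). At an unadjusted p under 0.05, 1 was higher. LSM1A, a subunit of the ring that binds shortened mRNA before decapping, read 5819.7 and 4060.4 in wild type and 5665 and 6224 in ein5 (0.29 ± 0.15, adjusted p = 0.313). RRP41, a subunit of the exosome that degrades RNA from the opposite end, read 1814 and 2328 in wild type and 1947 and 1442 in ein5 (-0.29 ± 0.17, adjusted p = 0.403). UPF3, a factor of nonsense-mediated decay, read 3979 and 3914 in wild type and 3626 and 3308 in ein5 (-0.19 ± 0.16, adjusted p = 0.595). The differences were within 2 standard errors in each of these 3 genes, but not in AT1G79090 (0.31 ± 0.13, adjusted p = 0.208). Of 53 targets of microRNAs, 2 had a value and 0 were called, PHV (0.11 ± 0.17) and APS4 (-0.41 ± 0.16), the latter lower at an unadjusted p under 0.05. The reference genes PEX4 (-0.32 ± 0.11), AT4G34270 (-0.20 ± 0.17) and AT2G28390 (-0.47 ± 0.15) were not called, 2 of them being lower at an unadjusted p under 0.05, and all 3 had negative values under each scaling tried. Without wild-type ethylene replicate 1, LSM1A was called higher with a change of 0.55 (adjusted p = 0.0155), and APS4 (adjusted p = 0.00378), PEX4 (adjusted p = 0.0424) and AT2G28390 (adjusted p = 0.0159) were called lower.

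The same genotypes in air gave 4 other arrays, so the same difference could be looked at without ethylene. Calls in both gases used a shared spread per probe set from all 12 arrays, so calls in air and in ethylene are not independent. In air 1320 probe sets (5.8%) were called, 463 (2.04%) higher in ein5 and 857 (3.77%) lower. With values as deposited 727 were higher and 640 lower, and after quantile normalization 731 and 730. This count was 5 when only the 4 air arrays were fitted, 18 with no variance trend and 46 without ein5 air replicate 2, 641 without wild-type air replicate 2, 834 without wild-type air replicate 1, 807 without ein5 air replicate 1, 865 and 867 without an ein2 air array, and 2196 and 2197 without a wild-type ethylene array. Of the 489 probe sets higher in ethylene, 351 (71.8%) had a positive value in air, against 52.0% of all probe sets, and 107 were called higher there. These are 21.9% of the higher calls in ethylene and 23.1% of those in air. Of the 667 lower in ethylene, 601 (90.1%) had a negative value in air, against 48.0% of all probe sets, and 207 were called lower, 31.0% of the lower calls in ethylene and 24.2% of those in air. Median changes over the probe sets called higher were 0.83 in ethylene and 0.27 in air, and over those called lower -0.70 and -0.40. The choice of probe sets by their ethylene values makes the ethylene medians too large.

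Several leading genes differed from wild type in both gases. PAP85 read 193 and 438 in wild-type air and 1515 and 1714 in ein5 air, a change of 2.40 ± 0.28 (adjusted p = 0.00104). PDF2.1 read 127 and 127 in wild-type air and 506 and 640.0 in ein5 air (2.03 ± 0.28, adjusted p = 0.00239), and M17 read 209 and 284 in wild-type air and 1045 and 918 in ein5 air (1.94 ± 0.24, adjusted p = 0.00129). In each of these genes all 4 ein5 arrays lay above all 4 wild-type arrays. AT2G15010, AT2G28490 and AT5G66780 were also called higher in air. On the lower side CYP718 read 660.3 and 546 in wild-type air and 72.3 and 168 in ein5 air (-2.28 ± 0.31, adjusted p = 0.00217). GAT1_2.1 (-1.03 ± 0.18), TBL41 (-1.02 ± 0.15), AT3G29970 (-1.41 ± 0.31) and PRX71 (-0.67 ± 0.11) were called lower in air as well. Among the wall enzymes, XTH18 (-0.79 ± 0.18), EXGT-A3 (-0.95 ± 0.12), ATPMEPCRB (-0.47 ± 0.11) and PMEPCRF (-0.67 ± 0.14) were lower in air too.

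**Figure D4:**
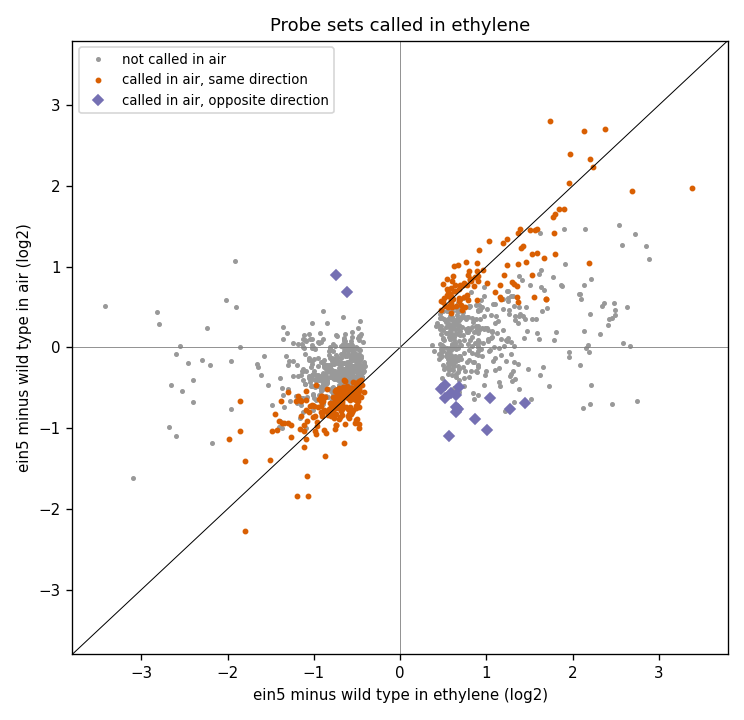
Change of ein5 against wild type in ethylene (horizontal axis, log2) and in air (vertical axis, log2) for the 1156 probe sets called in ethylene, with the line of equal change. Of these, 107 higher and 207 lower were called the same way in air, and 17 (diamonds) the opposite way.

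The interaction contrast tests whether the difference between ein5 and wild type was the same in ethylene as in air, whatever that difference was in air. It called 121 probe sets (0.532%), 98 (0.431%) positive and 23 (0.101%) negative. The count was 402 without wild-type ethylene replicate 1, 29 without ein5 air replicate 2, 40 and 46 without ein5 ethylene replicate 2 or 1, 79 and 80 without wild-type air replicate 2 or ein5 air replicate 1, and 57 to 62 without an ein2 array. AT5G40590 read 195 and 256 in wild-type air and 239 and 218 in ein5 air, so the genotypes overlapped without the gas. In ethylene they were far apart, and the difference of differences was -2.58 ± 0.31 (adjusted p = 0.00158). AT4G18280 read 6352 and 6666 in wild-type air and 6209 and 6357 in ein5 air, and 1451 and 2304 against 7471 and 6901 in ethylene (2.01 ± 0.23, adjusted p = 0.00121). Only the wild-type ethylene arrays were low for this gene. AT5G13900 read 4776 and 4006 in wild type and 4188 and 4194 in ein5 in air and 463 and 369.9 against 1754 and 2155 in ethylene (2.25 ± 0.20, adjusted p = 0.000134). Here ein5 was lower in ethylene than in air, yet stayed well above wild type.

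AT3G54040 and AT1G62770 had air values that overlapped between genotypes. In ethylene AT3G54040 read 12173 and 13938 in wild type and 5849 and 6108 in ein5, and AT1G62770 read 22485 and 28330.0 in wild type and 10835 and 12511 in ein5. SWEET17, a vacuolar fructose transporter, read 6334 and 4485 in wild-type air and 3723 and 3111 in ein5 air, and 1056 and 600.0 against 1565 and 1362 in ethylene. The order of the genotypes on the arrays thus turned between the gases (0.86 ± 0.22 in ethylene, adjusted p = 0.0364, and -0.64 ± 0.22 in air, adjusted p = 0.1). SWEET17 was not called without wild-type ethylene replicate 2 (adjusted p = 0.281), ein5 ethylene replicate 1 (adjusted p = 0.226) or ein5 ethylene replicate 2 (adjusted p = 0.119). TBL37 read 9649 and 11045 in wild-type air and 5765 and 5377 in ein5 air, and 1986 and 2260.0 against 3951 and 3807 in ethylene. It was called in both gases with opposite signs, -0.89 ± 0.11 in air (adjusted p = 0.0015) and 0.87 ± 0.11 in ethylene (adjusted p = 0.000638).

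**Figure D5:**
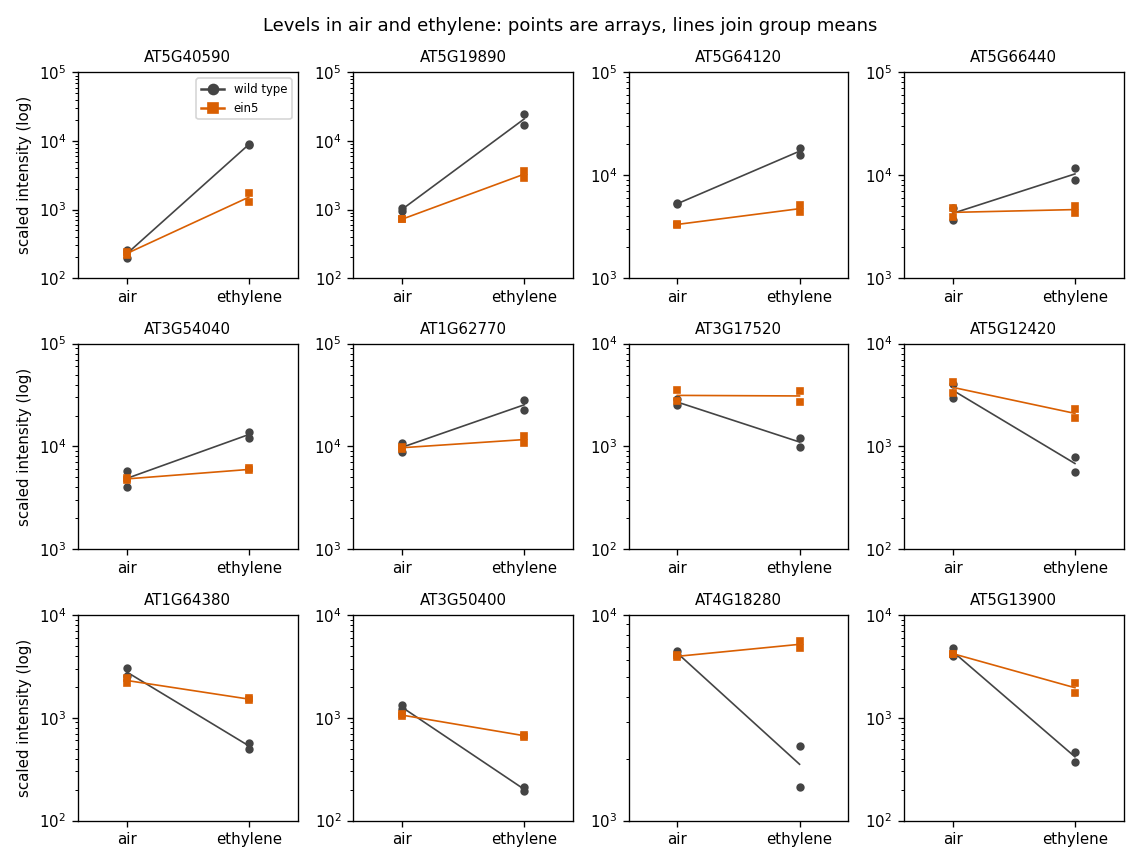
Scaled intensity (log axes, ranges differ between panels) in air and ethylene of 12 genes called in ethylene and in the interaction contrast, circles for wild type and squares for ein5, one point per array, lines between group means. The first 6 panels are genes with lower and the last 6 with higher values in ein5 in ethylene, while in air the genotypes lie close together in most panels.

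The ein2 mutant in ethylene shares the wild-type ethylene arrays with this comparison, so its values are only set beside those of ein5. Against wild type, 2246 probe sets (9.87%) were called in ein2, 1456 (6.4%) higher and 790 (3.47%) lower. RTE1 read 2944 and 3017 in ein2, below the 5472 and 4879 of ein5, and ARL read 8757 and 8749, below the 16788 and 15134 of ein5. LEA18 read 10862 and 11217 and AT5G66780 4994 and 6278, both above ein5. For these 4 genes the ein5 arrays thus lay between wild type and ein2. PDF2.1 read 738 and 666 and PAP85 1571 and 1937 in ein2, close to the ein5 values above. PRX71 read 8159 and 8419.6 in ein2, which was higher than in ein5 and lower than in wild type. AT3G29970 read 3563 and 3213 in ein2, within the 4105 and 2622 of wild type, whereas ein5 stood at 867 and 1008.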

How the data were processed

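For 12 one-colour arrays the authors deposited an intensity per probe set. Per the labels' protocols, images were quantified with GeneChip Suite and handled in GeneSpring by the authors. Array medians of the deposited intensities were 922 to 1039, so the division by the median that the series text describes is not visible, and the scaling that was applied is not given in the sources used here. Each array was scaled by the median of its values above 10 (factors 0.949 to 1.07), and log2 of the value plus 16 was used, so changes of dim probe sets come out too small. Between 3.86% and 6.16% of an array's values lay at or under 16.

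Group means of all 12 arrays were fitted with limma 3.58.1 in R 4.3.3, with variances that follow intensity and 6 residual degrees of freedom. Tests were two-sided, adjusted over 22746 probe sets by the Benjamini-Hochberg method. The median standard error was 0.23 in ethylene and 0.32 for the interaction. With 2 arrays a group, their number limits the precision and an exact permutation test cannot reach 0.05.

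Platform annotation gave 1 gene for 13513 probe sets and several for 503, which were not named, and 8730 were not listed. The TAIR10.1 gene table held 13436 of the former, and 11933 carried only a locus number. Named genes are single-gene probe sets that were called, did not overlap between groups and reached a mean of 500 in the brighter group: the 14 largest changes each way, the 6 largest each way also called in air, and the 6 also called in the interaction. To these come all members of the lists by locus and the 3 largest called members of each family found by symbol or synonym. Besides these, EXPA9, EXPB1, EXLA2, psbF, LEA4-5, UPB1, PUB19, MGL, bZIP44, U2AF35B and ATU2AF35A and the genes with opposite signs in the 2 gases were picked after their values were seen. The alternatives tried were other scalings, offsets of 1 and 64, no variance trend, only the compared groups, array weights, a floor of 200 on group means, a replicate block and leaving out each array. Members, lists and families were chosen with earlier results of these data known.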

Additional observations from a re-analysis of the deposited data

Results flagged for a closer look

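For 14 named genes the difference between ein5 and wild type differed between ethylene and air in limma's interaction contrast (ein5 minus wild type, ethylene minus air, adjusted over all probe sets). Negative values were -2.58 for AT5G40590, -2.19 for AT5G19890 (adjusted p = 0.00527), -1.19 for AT5G64120 (PRX71, adjusted p = 0.00441), -1.18 for AT5G66440 (adjusted p = 0.0358), -1.13 for AT3G54040 (adjusted p = 0.025) and -1.11 for AT1G62770 (adjusted p = 0.0328). Positive values were 2.25 for AT5G13900, 2.01 for AT4G18280, 1.90 for AT3G50400 (adjusted p = 0.0042), 1.76 for TBL37 (adjusted p = 0.000134), 1.75 for AT1G64380 (adjusted p = 0.00217), 1.51 for AT5G12420 (adjusted p = 0.0231), 1.51 for SWEET17 (adjusted p = 0.049) and 1.26 for AT3G17520 (adjusted p = 0.0231). Standard errors of these 14 values are within 0.16 to 0.31. Except for SWEET17 and TBL37, these genes met the naming rule that picks genes also called in this contrast, so their calls here follow from that choice. AT5G66440, AT3G54040, AT1G62770 and AT3G17520 were named by that rule alone. The number of 14 is therefore no result about the named genes. Over all probe sets 0.532% were called in this contrast.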

How the results depend on the processing

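The 71 named genes called in ethylene kept their direction in all 1491 values from 21 alternatives. Of these values 1258 were still called, and 29 genes were called in every alternative. The direction was largely fixed in advance, so its constancy is no sign of robustness. Alternatives that alter only the test, or leave out an array of another group, do not move the change. Leaving out a compared array or altering the offset cannot turn groups that do not overlap. Only the other scalings could have turned a direction. Calls in ethylene numbered 317 with no variance trend, 254 with only the compared groups and 686 with array weights, and 336 to 2539 when leaving out an array. Calls in air numbered 18 with no variance trend, 5 with only the compared groups and 46 to 2197 when leaving out an array. For the interaction the same settings gave 20, 26 and 29 to 402, and for ein2 1438, 1267 and 1131 to 2425. Leaving out an array also removes a residual degree of freedom, and otherwise the cause was not tested. The replicate block gave 1158 calls in ethylene, 1310 in air, 112 in the interaction and 2225 in ein2. No pairing of the arrays by replicate number was visible, as their deviations correlated between groups at -0.04 to 0.07. Such correlations over all probe sets cannot exclude shared cultures or runs. The median change over all probe sets was -0.03, and 0.05 with values as deposited.

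Genes that were not called changed sign in places, for which the cause was not tested. When leaving out an array, RCA ranged from -0.84 to 0.0010, PDF1.2 from -0.87 to 0.38, AT1G76630 from -0.41 to 0.18, EIN3 from -0.27 to 0.066, AT3G46960 from -0.046 to 0.18, LSM1B from -0.28 to 0.45 and PHV from -0.084 to 0.30. EIN3 was at 0.027 after quantile normalization.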

Other observations

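Probe sets called in both gases with opposite signs were picked out after their values had been seen. They numbered 17 with TBL37, of which 15 were higher in ein5 in ethylene and lower in air, and 2 the reverse. The 15 were out of 489 called higher in ethylene, beside 3.77% of all probe sets called lower in air. The 2 were out of 667 called lower in ethylene, beside 2.04% of all called higher in air. Of the 15, all but AT4G01140, TBL37, AT1G29660 and AT1G75900 lost the ethylene call when some ethylene array was left out. The calls in air varied with the fit, as given above. AT1G29660 read 5046 and 3797 in wild-type air and 2791 and 2641 in ein5 air, and 545 and 517 in wild-type ethylene against 1523 and 1441 in ein5 ethylene. AT1G75900 read 13827 and 11327 in wild-type air and 7948 and 6858 in ein5 air, and 1506 and 1515 in wild-type ethylene against 3535 and 3850.1 in ein5 ethylene. In both genes ein5 was below wild type without the gas and above it with the gas. AT1G50110, one of the reverse pair, read 569.8 and 440.1 in wild-type air and 808 and 1109 in ein5 air, and 5039 and 4845 in wild-type ethylene against 2983 and 2906 in ein5 ethylene. Neither AT1G50110 (adjusted p from 0.0761 to 0.187) nor AT5G55620 (adjusted p from 0.0706 to 0.227), the other of that pair, was called in ethylene without any of the 4 ethylene arrays in turn, whereas AT1G29660 and AT1G75900 were called without each.

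Transcripts of the chloroplast genome were mostly lower in ein5 in ethylene without passing the test. Of 69 probe sets 56 had a negative value, with a median of -0.41, and 1, psbF, was called lower, at 15639 and 13010.1 in wild type and 8712 and 8305 in ein5 (adjusted p = 0.0291). The share called lower over all single-gene probe sets was 2.47%. At an unadjusted p under 0.05, 13 of the 69 chloroplast probe sets were lower and 1 higher. Median levels over these probe sets were 4443 and 6509 on the wild-type ethylene arrays and 4128 and 3401 on the ein5 ones, and 3114 and 7500 (replicates 1 and 2) in wild-type air, so replicates of 1 group differed as much as the genotypes. The sample titles read polyA, and the part of the RNA preparation in these levels was not tested. Calls were spread over the nuclear chromosomes, from 4.38% of the single-gene probe sets on chromosome 1 to 5.25% on chromosome 4.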
